A study of Canis lupus familiaris with 4 samples.

Results

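A set of 10 canine genes is described here, chosen by their measured intensities, because the array labelled HIF2A knockdown differed from the wild type array by a similar amount at both oxygen levels. They are *NFIL3*, *JMJD1C*, *ANKRD11*, *CYP4A37*, *FNIP2*, *CDCP1*, *MRAS*, *RNF141*, *FAM107B* and *FSTL1*, which is 10 of the 15115 genes that have a probe set with 1 gene symbol. The 4 conditions were wild type and HIF2A knockdown Madin-Darby canine kidney cells of strain II (MDCKII), each in normoxia (16% O2) and in hypoxia (1% O2). A culture of 24 h in normoxia preceded the 24 h at the oxygen level of the group. Cells without the knockdown are labelled wild type, and the study describes its control cells as infected with a retrovirus that carries an empty shRNA cassette. The knockdown cells had been infected with an shRNA retrovirus and selected with puromycin. For its microarray in normoxia the paper names 1 knockdown line, HIF2α-KD#1, so the shRNA and other properties of that line cannot be told apart. Only 1 Affymetrix canine array was hybridized per condition. There are thus no replicates, no difference below has an error or a p-value, and the values describe these 4 arrays.

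MDCK cells are a line of polarized kidney epithelium with features of the collecting duct. HIF2α, the product of *EPAS1*, is the oxygen-regulated subunit of a transcription factor. At normal oxygen, prolyl hydroxylases mark it for destruction by the VHL ubiquitin ligase, and in hypoxia it accumulates and binds hypoxia response elements together with its partner ARNT. The paper reports that HIF2α also has a function in MDCK cells in normoxia. It is known in kidney and other tissues for the control of genes of metabolism, invasion and growth. The genes serve varied roles. NFIL3, JMJD1C and ANKRD11 act on transcription and chromatin, CYP4A37 and FNIP2 in fatty acid oxidation and nutrient sensing, and CDCP1 and MRAS in signalling at the membrane. RNF141 is a RING finger protein, FAM107B is related to an actin-binding protein, and FSTL1 is secreted.

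The target gene was read first. The brightest *EPAS1* probe set read 44.6 on the wild type array and 47.9 on the array labelled HIF2A knockdown in normoxia. In hypoxia it read 116 and 32.6. Its other probe set read 6.39 or less on all 4 arrays, too dim to compare. In the brightest probe set only the hypoxic pair thus had less *EPAS1* on the knockdown array. Every direction in normoxia is drawn from an array labelled knockdown on which this dim reading of the target was not lower. The paper, however, reports by RT-qPCR a reduced target mRNA in its knockdown lines, among them the line named above. The extent of the knockdown in the cells of the normoxic array was not tested otherwise. The 63 dim reporter probe sets, which match no canine gene, had 95th percentiles between 20.6 and 27.2 on the 4 arrays, and this level is used below as the upper end of background. Of 9 kidney epithelial markers with a probe set, 7 lay above it on all 4 arrays, whereas *CDH1* did so in hypoxia only and *PAX8* was at 1 throughout. The paper, however, measured *CDH1* mRNA and its protein E-cadherin in normoxic MDCK cells, so the dim reading does not show absence. The summed intensity of the 9 markers was between 26439 and 28431. The 7 fibroblast, 5 endothelial and 5 leukocyte markers had summed intensities of 106 to 226, 118 to 145 and 140 to 167, and 5, 4 and 1 of them were above background on no array. Above it on all arrays were *PDGFRA*, *CDH5* and 4 dim leukocyte markers, among them *PTPRC* at 31.9 to 39.4. Their part in the results was not tested. In these bulk samples fewer cells of a type and less RNA per cell cannot be told apart.

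Differences are log2 values taken after adding 16 to each intensity, so the change of a dim gene is understated. A difference of 1 on this scale, called 2-fold, was the size counted. The brightest probe set of a gene stood for it, and a gene was kept if it reached 28.6, the median of all deposited values, on at least 1 array. This left 9766 genes, including all 10 described here. These 10 genes have 25 probe sets, of which 22 passed the filter. *CDCP1*, *FAM107B* and *MRAS* have 1 probe set each, and the other 7 genes have several.

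**Figure D1:**
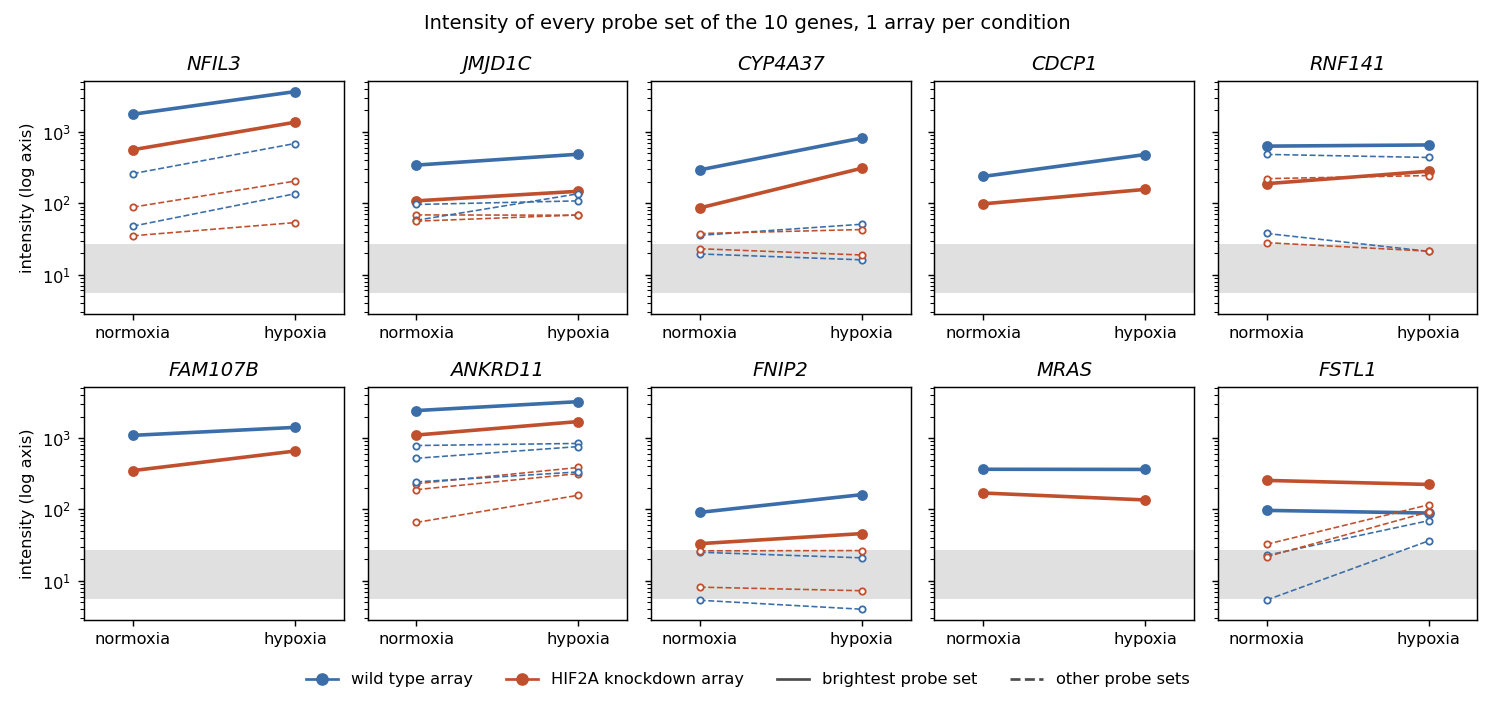
Intensity on a log axis of every probe set of the 10 genes, with 1 point per array, blue for wild type and red for the array labelled HIF2A knockdown, in normoxia and in hypoxia. Solid lines join the arrays for the brightest probe set and dashed lines for the others, and the grey band runs from 5.48 to 27.2, from the lowest reporter median to the highest reporter 95th percentile. In the brightest probe set the red line lies below the blue line for 9 genes and above it for *FSTL1*.

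In all, 9 genes were lower and 1 gene, *FSTL1*, was higher on the array labelled knockdown at both oxygen levels. These are the values that chose the genes, so they are given as a description. All 10 reached a 2-fold difference in normoxia, 9 of them lower, where 0.543% of all kept genes were 2-fold lower and 0.614% 2-fold higher, 1.16% in either direction. In hypoxia 8 were 2-fold lower and *FSTL1* 2-fold higher, against 0.881% and 0.102% of all kept genes, or 0.983% together. *ANKRD11* was the exception in hypoxia, at -0.92. Since the contrasts are those of the choice, nothing follows from these shares for the 10 genes. The median of the 9 lower genes was -1.53 in normoxia and -1.36 in hypoxia, where the median of all kept genes was -0.04 in both. The gap between a gene's differences in hypoxia and in normoxia was smallest for *FSTL1*, at 0.07 in size, and largest for *FAM107B*, at 0.52. The difference was larger in size in normoxia for 6 genes and in hypoxia for *JMJD1C*, *CDCP1*, *FNIP2* and *MRAS*.

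**Figure D2:**
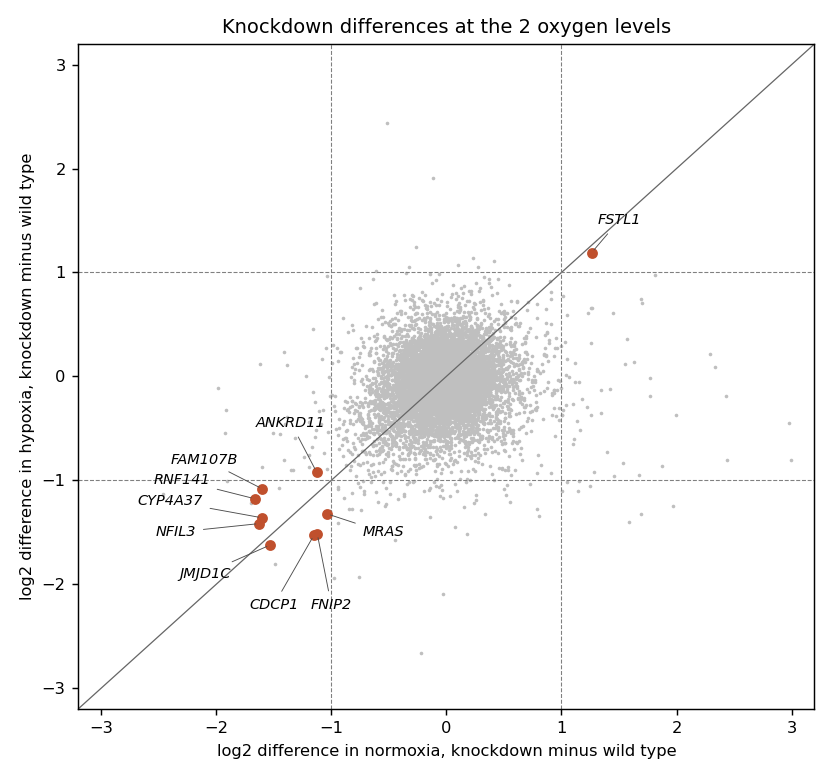
Each point is 1 of 9766 kept genes, with the log2 difference of the array labelled HIF2A knockdown from the wild type array in normoxia on the horizontal axis and in hypoxia on the vertical axis. Dashed lines mark a 2-fold difference and the solid line marks equal differences. The 10 genes, in red, lie near the solid line, 9 of them between -1.67 and -1.04 on the horizontal axis and *FSTL1* at 1.26.

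*NFIL3* encodes a basic leucine zipper repressor that competes with the activators DBP, TEF and HLF for D-box elements and is tied to the circadian clock. Its brightest probe set read 1767 in wild type cells and 562 under the knockdown label in normoxia, and 3669 and 1365 in hypoxia. Both knockdown arrays lay below both wild type arrays. The wild type value was 3.14 times the knockdown value in normoxia and 2.69 times in hypoxia, which are log2 differences of -1.63 and -1.42. A further probe set read 259.7, 88.2, 687 and 204 in the same order of arrays and differed by -1.40 and -1.67. The dimmest probe set, at 47.7, 35.0, 136 and 53.6, differed by -0.32 in normoxia and -1.13 in hypoxia. All 3 probe sets of *NFIL3* thus had the same direction, and the dimmest was under 2-fold in normoxia.

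*JMJD1C* encodes a Jumonji domain protein of the family of histone H3 lysine 9 demethylases and a coactivator of nuclear receptors. It read 343 and 108 in normoxia and 486 and 147 in hypoxia, wild type before knockdown. Its log2 differences of -1.53 and -1.62 were 0.09 apart. Its other probe sets gave smaller values. One read 96.1, 68.7, 108 and 68.0 and differed by -0.40 and -0.56, and the other read 57.7, 56.1, 136 and 68.5 and differed by -0.03 and -0.85. With the mean of the 3 probe sets in place of the brightest, the difference in normoxia was -0.66 and no longer 2-fold.

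*ANKRD11* encodes an ankyrin repeat protein of chromatin that links nuclear receptor coactivators to histone deacetylases. Its brightest probe set read 2426 and 1101 in normoxia and 3234 and 1703 in hypoxia, with differences of -1.13 and -0.92. The other 3 probe sets, all above background on every array, differed by -1.97, -1.13 and -1.67 in normoxia and by -1.36, -0.94 and -1.01 in hypoxia. The strongest of these read 785, 189, 841 and 318. *ANKRD11* was thus lower at both oxygen levels in each of its 4 probe sets, between 0.92 and 1.97 in size.

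*CYP4A37* encodes a cytochrome P450 of the CYP4A family, enzymes that hydroxylate the end of fatty acid chains and are abundant in kidney tubules. It read 293 and 85.9 in normoxia and 820.1 and 310 in hypoxia. The differences were -1.60 and -1.36. Another probe set that passed the filter was dim, at 35.5, 37.6, 50.8 and 42.8, and differed by 0.06 and -0.18. A further probe set lay between 16.1 and 23.0 and did not pass the filter. The shift of *CYP4A37* thus rests on 1 of its 3 probe sets, and with the mean of the kept probe sets it was -0.77 at both oxygen levels. Members of the CYP4A family are alike in sequence, and a probe set that the annotation gives to several of them was not used.

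*FNIP2* encodes a folliculin-interacting protein, which joins folliculin to AMPK and to the Rag GTPases that sense amino acids at the lysosome. Its brightest probe set read 90.8 and 33.1 in normoxia and 161 and 45.8 in hypoxia, with differences of -1.12 and -1.52. Both knockdown values lay above the background levels of their arrays, which were 20.6 and 24.2. The leukocyte marker *PTPRC*, however, read 39.4 and 36.2 on the same arrays, so the size of the *FNIP2* difference is uncertain. The other 2 probe sets did not pass the filter and lay at 3.99 to 26.5. On the linear scale the wild type array was 2.74 times the knockdown array in normoxia and 3.51 times in hypoxia. With a pseudocount of 64 the difference in normoxia was -0.67.

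*CDCP1* encodes a transmembrane glycoprotein that is phosphorylated by Src family kinases and recruits protein kinase C delta. It read 237 and 98.0 in normoxia and 482 and 157 in hypoxia. The differences were -1.15 and -1.53. *MRAS* encodes a Ras-related GTPase that forms a phosphatase complex with SHOC2 and PP1 to activate RAF kinases. It read 365 and 170 in normoxia and 363 and 136 in hypoxia, with differences of -1.04 and -1.32. The 2 wild type arrays of *MRAS* differed by less than 2 units. Both genes stayed lower under every alternative, but the difference in normoxia fell short of 2-fold with a pseudocount of 64, at -0.90 for *CDCP1* and -0.88 for *MRAS*, and for *MRAS* also with quantile (-0.98) and cyclic loess normalization (-0.98).

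*RNF141*, the RING finger gene, read 632 and 188 in normoxia and 656 and 281 in hypoxia, with differences of -1.67 and -1.18. A further bright probe set read 484 and 221 in normoxia and 438 and 245 in hypoxia, and differed by -1.07 and -0.80. The dim probe set of *RNF141*, at 21.2 to 37.7, differed by -0.29 and 0.01. With the mean of the 3 probe sets the difference of *RNF141* in hypoxia was -0.66 and no longer 2-fold. *FAM107B* encodes a small protein related to the actin-binding FAM107A. It read 1090.5 and 349 in normoxia and 1410.3 and 657 in hypoxia, so that the wild type array was 3.12 and 2.15 times the knockdown array. Its differences of -1.60 and -1.08 were the farthest apart of the 10 genes.

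*FSTL1*, which encodes a secreted glycoprotein with a follistatin-like domain that binds ligands of the TGF-β superfamily, was the only one of the 10 that was higher. Its brightest probe set read 96.8 and 255 in normoxia and 89.0 and 224 in hypoxia, a knockdown array 2.63 and 2.52 times the wild type array. The differences were 1.26 and 1.19. Its other probe sets read 22.7, 32.4, 69.6 and 116, and 5.37, 21.7, 36.3 and 92.3. They also had the knockdown array higher at both oxygen levels, by 0.32 and 0.63 and by 0.82 and 1.05, although their wild type values in normoxia lay below the background level of 27.2. With the mean of the 3 probe sets the differences of *FSTL1* were 0.80 and 0.96.

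Counted over probe sets, the 9 lower genes have 10 kept probe sets besides the brightest. Of these 8 were below 0 at both oxygen levels and 3 were 2-fold lower at both. The 2 exceptions were the dim probe sets of *CYP4A37* and *RNF141* described above. The 3 probe sets that did not pass the filter were above 0 at both oxygen levels, by 0.14 and 0.12 for *CYP4A37* and by 0.04 and 0.20 and by 0.18 and 0.22 for *FNIP2*. Probe sets of a gene read the same RNA on the same array and are not replicates.

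Hypoxia against normoxia is the comparison that the choice of the genes did not use. It shares its arrays with the knockdown comparisons, and because the knockdown differences were chosen to be similar at both oxygen levels, the hypoxia differences of a gene in wild type and in knockdown cells are similar by choice. Their mean over both cell labels is not fixed by it. Under both labels 8 of the 9 lower genes were above 0 in hypoxia. The same held for 36.1% of all kept genes, but nothing is read from this share, because the choice favours the same sign under both labels. *RNF141* counts among the 8 with 0.05 in wild type cells, which became -0.04 with quantile normalization and -0.21 with the mean of its kept probe sets. The median over the 9 lower genes of this mean was 0.53, against 0.02 over all kept genes, whose central 95% ran from -0.54 to 0.85. *CYP4A37* stood highest, 2.80 times higher in hypoxia in wild type cells and 3.60 times higher in knockdown cells, differences of 1.43 and 1.68. *NFIL3* followed with 1.05 and 1.26. These were the 2 genes of the 10 at 2-fold in each of the 2 hypoxia comparisons, where 3.04% and 1.38% of kept genes were 2-fold higher and 3.58% and 1.8% differed 2-fold in either direction. None of the 10 was 2-fold lower in hypoxia, against 0.543% and 0.42% of kept genes, or 0.113% under both labels. With the mean of the kept probe sets the differences became 0.90 and 0.90 for *CYP4A37*, and the difference of *NFIL3* in knockdown cells 0.93.

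The other lower genes differed less between the oxygen levels. *CDCP1* was higher in hypoxia by 0.97 in wild type and 0.60 in knockdown cells, *FNIP2* by 0.73 and 0.33, *ANKRD11* by 0.41 and 0.62, *JMJD1C* by 0.49 and 0.40 and *FAM107B* by 0.37 and 0.88. *RNF141* was level in wild type cells, at 0.05, and 0.54 higher in knockdown cells. *MRAS* was the lower gene without a positive value, at -0.01 and -0.29. The brightest probe set of *FSTL1* was close to 0, at -0.10 and -0.18. Its other 2 probe sets, however, were higher in hypoxia by 1.15 and 1.29 in wild type cells and by 1.45 and 1.52 in knockdown cells, so the probe sets of *FSTL1* disagree on its hypoxia difference while they share the direction of the knockdown difference.

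**Figure D3:**
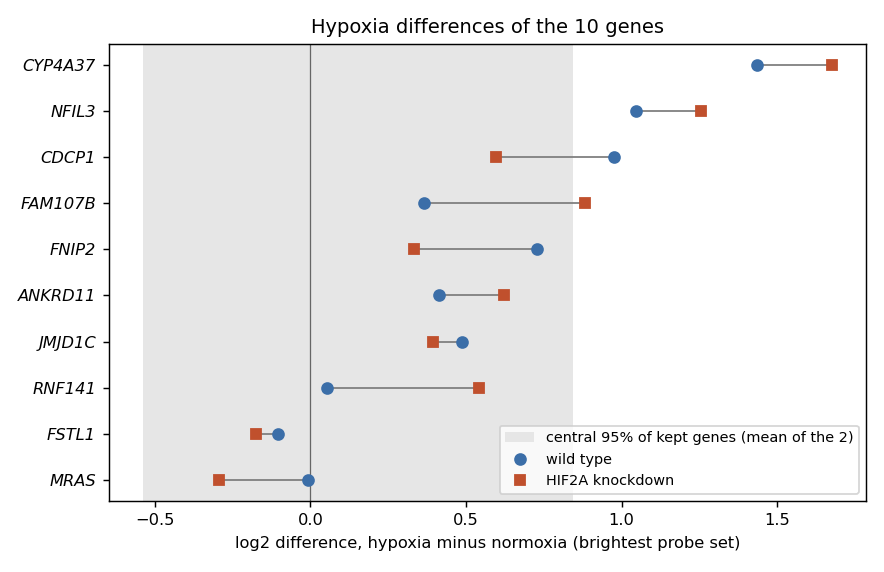
Log2 difference of the hypoxic from the normoxic array for the brightest probe set of each of the 10 genes, blue circles for wild type and red squares for knockdown cells, ordered by their mean. The grey band marks the central 95% of kept genes for that mean, -0.54 to 0.85. *CYP4A37* and *NFIL3* lie to the right of the band and *MRAS* and *FSTL1* to the left of 0.

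In 8 of the 9 lower genes the hypoxic knockdown array stayed below the normoxic wild type array, from 0.372 times its intensity in *MRAS* to 0.772 times in *NFIL3*. The hypoxic knockdown array of *CYP4A37* was 1.06 times the normoxic wild type array. These ratios contain the knockdown difference that chose the genes and are a description. With 1 array each, no neighbouring levels can be said to differ beyond their spread.

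At least 2-fold lower at both oxygen levels were 14 kept genes, 0.143% of all, and at least 2-fold higher 1, which is 0.0102%. The 10 genes make up 8 of the former and the latter. The other 6 lower genes were *FGF21*, *DSG3*, *KLF3*, *CHAC1*, *MTHFD2* and *ANKRD44*, named because they complete this count. In this order, the means of their 2 hypoxia differences were 2.12, 0.17, 0.11, 0.87, 0.75 and 0.40. A mean above 0 in hypoxia was thus not particular to the 10 genes. The 2 differences of *FGF21* and *KLF3* were farther apart, at -2.46 and -1.14 and at -1.91 and -1.01. Among kept genes whose 2 differences lay within 0.5 of each other, genes of like pattern were ranked by the smaller of their 2 differences in size, taken from the 4 arrays. *FAM107B*, with a gap of 0.52, falls outside this limit. Outside the 10, *DSG3*, which encodes a desmosomal cadherin, stood first among the lower genes, at rank 2 behind *JMJD1C*, with intensities of 714, 244, 900.2 and 246 and differences of -1.49 and -1.80. *CHAC1*, a glutathione-degrading enzyme, and *MTHFD2*, a mitochondrial folate enzyme, were next with -1.70 and -1.22 and with -1.45 and -1.08, and *ANKRD44* had -1.01 and -1.30. *CHAC1* was below background on the normoxic knockdown array, at 10.1. *ERRFI1*, a feedback inhibitor of the EGF receptor, lay just under 2-fold in normoxia at -0.94 and at -1.06 in hypoxia. *ANKRD11* ranked 15 in this order, so genes outside the 10 lie inside its values. Among the higher genes *FSTL1* ranked 1 and was followed by *BTK*, a tyrosine kinase, at 0.90 and 0.92, and by *TDRKH*, *SLC11A1*, *PLAAT4* and *IQCH*, whose smaller difference was between 0.71 and 0.81. *TDRKH* and *IQCH* were above background on 2 arrays only.

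The genes that work with each of the 10 were read from lists of families and pathways, with the gene itself left out. Of 164 genes kept over the lists, 3 were 2-fold lower in normoxia and 7 in hypoxia, and 2 and 0 were 2-fold higher. Of all kept genes, 0.543% and 0.881% were 2-fold lower and 0.614% and 0.102% were 2-fold higher. The lists were chosen with earlier results of these data known, so nothing is read from these counts. The 3 lower list genes in normoxia were *BHLHE40*, *FGF21* and *BMP2* and the 2 higher genes *INHBA* and *PLAU*. *FGF21* alone was 2-fold lower at both oxygen levels. The *NFIL3* list of PAR and C/EBP genes had 2 kept genes of 9. *DDIT3*, a stress-induced factor, read 184, 131, 580 and 185 and differed by -0.44 and -1.57, and *CEBPZ*, which despite its symbol is not a basic leucine zipper factor, by -0.22 and 0.00. Of 8 kept clock genes *BHLHE40*, a hypoxia-responsive repressor, differed most, by -1.06 and -0.73, and *ARNTL*, the core activator, by -0.51 and -0.46. The list median of the mean of the 2 differences was -0.14, where that of all kept genes was -0.03. The list beside *JMJD1C* held histone H3 lysine 9 demethylases and also methyltransferases, which have the opposite activity. Of its 12 kept genes none was 2-fold different between knockdown and wild type, and their median was -0.04. *PHF2*, a demethylase with the largest mean of the list in size, was at -0.21 and -0.51.

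The list around *CYP4A37* held 16 kept genes of fatty acid oxidation and PPARα targets and no kept omega-hydroxylase. *FGF21* was 2-fold lower at both oxygen levels and no other gene of the list at either. *CYP4A11*, a related P450 outside the list, differed by -1.41 in normoxia and 0.24 in hypoxia. *CPT1A*, the gate of mitochondrial fatty acid uptake, differed by -0.31 and -0.22. The list median was -0.02. None of 23 kept genes of the folliculin, AMPK and Rag complexes around *FNIP2* was 2-fold different. The AMPK catalytic subunits *PRKAA2* and *PRKAA1* differed by -0.51 and -0.43 and by -0.39 and -0.22, and *GPNMB*, a lysosomal target of the MiT/TFE factors, by 0.86 and 0.20. *PRKAA2* was dim, and its 19.6 on the normoxic knockdown array lay below background. The median of this list was -0.03. Of 21 kept genes around *MRAS*, 11 were below 0 at both oxygen levels, as were 33.7% of all kept genes, and the phosphatase gene *DUSP5* was 2-fold lower in hypoxia, at -1.05, and at -0.09 in normoxia. Of 12 kept genes around *CDCP1*, the Src family kinase *FYN* had the largest mean, at -0.71 and -0.60, but its intensity of 13.6 in knockdown normoxia lay below background. *PLAU*, the protease urokinase, named after its values were seen, differed by 1.58 in normoxia and -1.40 in hypoxia.

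Of 13 kept coregulators beside *ANKRD11* none was 2-fold different. The acetyltransferase *CREBBP* differed by -0.33 and -0.65 and the coactivator *NCOA2* by -0.55 and -0.41. In the list of follistatin relatives and activin and BMP ligands around *FSTL1*, with 13 kept genes, no other gene was 2-fold higher at both oxygen levels. *INHBA*, an activin subunit, differed by 1.97 and -1.25, *FST*, the activin antagonist follistatin, by 0.79 and -1.28 and *BMP2* by -1.08 and 0.17. Of 8 kept actin-bundling genes listed beside *FAM107B*, *ACTN4* differed most, by -0.33 and -0.80, and *FAM107A* itself was dim, at 18.1 to 34.4. Of 36 kept RING finger ligases beside *RNF141*, 20 were below 0 at both oxygen levels, where 33.7% of all kept genes were, *RNF19B* alone was 2-fold lower, at -1.07 in hypoxia and -0.07 in normoxia, and the median was -0.11.

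**Figure D4:**
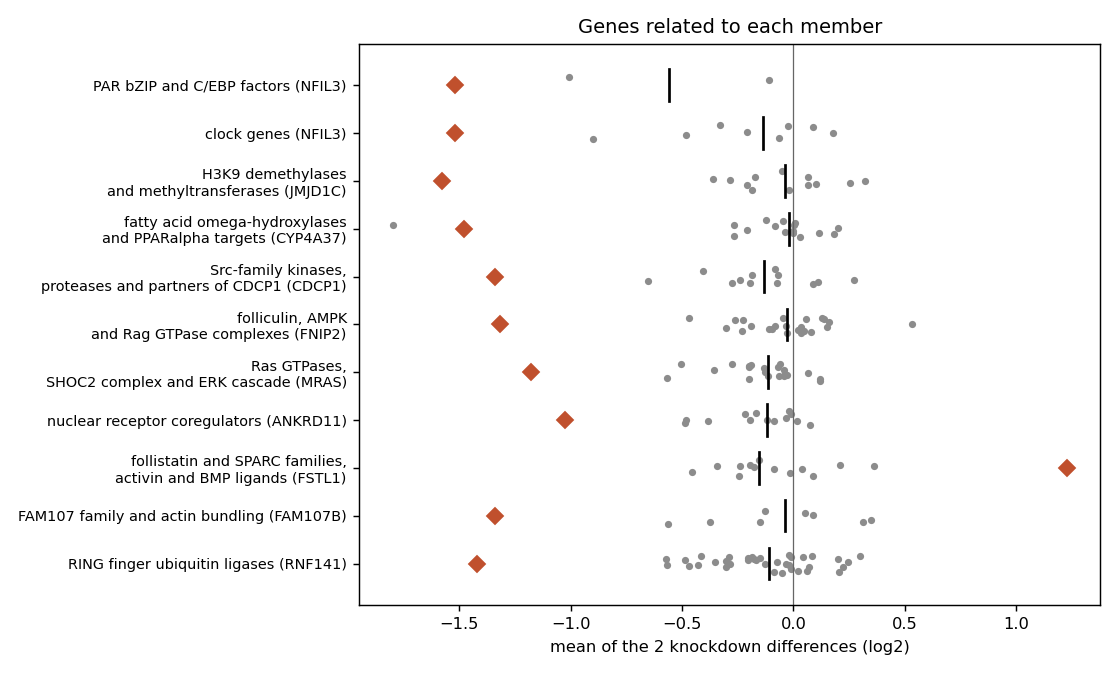
Mean of the differences in normoxia and in hypoxia, knockdown minus wild type on the log2 scale, for the kept genes of each list in grey, with the list median as a black line and the gene of the 10 that the list belongs to as a red diamond. The list medians lie between -0.56, for 2 genes, and -0.02, and *FGF21* at -1.80 is the grey point farthest to the left.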

How the data were processed

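The authors deposited a linear intensity for each of 42924 probe sets on 4 arrays. Biotin-labelled cRNA was prepared with an Affymetrix 3' labelling kit per the labels. How probe sets were summarized, background corrected and scaled, and with which software, is not given in the sources used here. Probe sets were named from the platform annotation, where 29254 carry 1 symbol, 439 several and 13167 none, and 64 are reporters, of which 1 bright reporter was left out as background. LOC symbols were counted but not named.

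Differences were taken on log2(intensity + 16). With 1 array per condition no test was run. An additive limma fit over the 4 arrays was left out, since its 1 residual degree of freedom is the gap between the knockdown differences on which the genes were chosen. The genes named were the 10 chosen, *EPAS1*, up to 5 genes per direction of like pattern, and up to 4 per related list with the largest mean knockdown difference. The members and lists were chosen with earlier results of these data known. The counting code was run on simulated data with known changes and little noise, which checks the code and not the counts on these arrays. Alternatives were pseudocounts of 1 and 64, median, quantile and cyclic loess scaling, no filter, a minimum of 175 (75th percentile of the table), the mean of the kept probe sets, and 1.5-fold. Python 3.11.15 was used with pandas 2.3.3, numpy 2.4.6 and matplotlib 3.10.9, and limma 3.58.1 in R 4.3.3 for cyclic loess. A search for motifs in promoters was not run. The number of arrays limits the precision.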

Additional observations from a re-analysis of the deposited data

Results flagged for a closer look

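Each result here had opposite signs in the pair compared, and for genes outside the 10 at least 1 of the 2 differences was 2-fold. None of these differences was tested. Among the 10, a dim probe set of *CYP4A37* had knockdown differences of 0.06 in normoxia and -0.18 in hypoxia, a gap of -0.24, and the dim probe set of *RNF141* had -0.29 and 0.01, a gap of 0.29. The hypoxia difference of the further bright probe set of *RNF141* was -0.14 in wild type and 0.14 in knockdown cells, a gap of 0.27, and that of a *JMJD1C* probe set was 0.15 and -0.01, a gap of -0.16.

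Outside the 10, the knockdown differences of *INHBA* were 1.97 in normoxia and -1.25 in hypoxia, a gap of -3.22. *PLAU* had 1.58 and -1.40, a gap of -2.99, and *FST* 0.79 and -1.28, a gap of -2.06. The opposite order was seen in *CYP4A11*, at -1.41 and 0.24 with a gap of 1.65, and in *BMP2*, at -1.08 and 0.17 with a gap of 1.25. The target *EPAS1* was at 0.08 and -1.45, a gap of -1.52.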

How the results depend on the processing

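The knockdown differences of the 10 genes kept their direction under all 8 alternatives that gave a value, and *FNIP2* gave none with the filter at 175. With a pseudocount of 64, 6 of the 10 were 2-fold in normoxia and 5 at both oxygen levels, in place of 10 and 9. With the mean of the kept probe sets 6 were 2-fold at both. Leaving out the normoxic knockdown array, on which *EPAS1* was not lower, was chosen after seeing the data and gives no count at both oxygen levels, since only the knockdown comparison in hypoxia is left. In hypoxia against normoxia, 1 gene of the 10 was 2-fold in wild type and 0 in knockdown cells with the mean of the kept probe sets, in place of 2 and 2, and 4 and 5 at 1.5-fold. The hypoxia difference changed sign for *FSTL1* with the mean of the kept probe sets, to 0.78 in wild type and 0.93 in knockdown cells, and for *RNF141* in wild type cells, to -0.21 with that mean and -0.04 with quantile normalization. Over all genes, the counts of 113 and 96 in the knockdown comparisons in normoxia and in hypoxia became 237 and 227 with a pseudocount of 1, 65 and 37 with 64, and 587 and 639 at 1.5-fold, and that in hypoxia became 55 with the filter at 175. The counts of 350 and 176 between the oxygen levels in wild type and in knockdown cells became 597 and 336, 193 and 98, and 1418 and 797. The cause of these changes was not tested, except that a larger pseudocount shrinks the differences of dim genes and a higher filter leaves fewer genes. A paired analysis was not run. The labels give no shared replicate numbers, and with 1 array per condition a block by oxygen level is the additive fit that was left out by choice. With 1 array no replicate could be left out. The promoter motif comparison was not run.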

Other observations

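The genes next to each of the 10 were read from the gene order of the dog assembly UU_Cfam_GSD_1.0, 2 protein-coding genes to each side, matched by symbol. None of the 40 neighbours was among the 10, and 20 were kept. Their knockdown differences lay between -1.41 and 0.41, and 1 was 2-fold in normoxia and 0 in hypoxia. This gene was *CYP4A11*, 2 genes from *CYP4A37*, which read 261 and 88.1 in normoxia and 286 and 339 in hypoxia, wild type before knockdown. Its differences were -1.41 in normoxia and 0.24 in hypoxia, where *CYP4A37* was at -1.60 and -1.36. In hypoxia against normoxia *CYP4A11* was at 0.12 in wild type and 1.77 in knockdown cells. *NRBF2*, next to *JMJD1C*, differed by -0.87 and -0.51, and *AUH*, next to *NFIL3*, by -0.59 and -0.39. These genes were chosen after their values were seen.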
